A study of Homo sapiens with 8 samples.

Results

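Across 8 libraries, 9 genes that write, copy, remove or work beside DNA methylation were followed: DNMT1, UHRF1, HELLS, DNMT3A, DNMT3B, TET1, TET2 and TET3, with the histone methyltransferase gene EZH2. The 9 genes were taken by name, with earlier results of these data known. All 9 were among the 23228 genes in the count files, and all 9 were among the 13915 genes that passed the filter on low counts. The libraries are labelled as U87 MG, an established glioblastoma cell line grown in DMEM with serum. They fall into 4 groups of 2: U87 control cells, ERβ-KO cells in which the gene for estrogen receptor beta (ESR2) was knocked out with CRISPR/Cas9, and ERβ1 and ERβ5 cells, which are knockout cells into which isoform ERβ1 or isoform ERβ5 was reintroduced. The ERβ1 and ERβ5 groups therefore share the knockout, and the figures write the groups as control, ERb_KO, ERb1 and ERb5. Whether the knockout is 1 clone, which promoter drives the isoforms and whether the replicates are separate cultures is not given in the sources used here. The p-values below therefore measure the spread between these libraries, which may be technical.

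Methylation of CpG sites in DNA is lost by dilution when a cell copies its genome unless it is copied too. UHRF1 binds the half-methylated sites behind the replication fork and brings in DNMT1, the maintenance methyltransferase, and HELLS is a chromatin remodeler that gives these enzymes access to packed DNA. DNMT3A and DNMT3B set new methylation, and TET1, TET2 and TET3 oxidize the methyl group, the step from which it can be replaced by an unmethylated base. EZH2 is the catalytic subunit of Polycomb repressive complex 2 (PRC2), which places the repressive H3K27 methylation mark on histones. In glioma, DNA methylation patterns are a known basis for classifying tumors, and the TET enzymes are inhibited by the metabolite that mutant isocitrate dehydrogenase makes.

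UHRF1, HELLS, EZH2 and DNMT1 were the members that fell in the comparisons with the libraries labelled ERβ-KO, and stretches around their start sites are shown because each holds a word that the windows of the other 5 members did not. Promoter windows of 300 bases (250 before and 50 from the start of a transcript) came from RefSeq on GRCh38.p14, and all 9 genes matched, with 21 windows in all. Each stretch below runs from 100 bases before the start to 30 bases from it, 5′ to 3′ on the gene's strand. Capitals mark a match to an E2F-type word (TTTCCCGC, TTTCGCGC, TTTGCCGC or TTTGGCGC, on either strand).
EZH2 (chr7:148884262-148884391, minus strand): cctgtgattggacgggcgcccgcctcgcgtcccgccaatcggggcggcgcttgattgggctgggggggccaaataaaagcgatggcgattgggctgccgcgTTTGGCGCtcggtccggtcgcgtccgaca
HELLS (chr10:94545688-94545817, plus strand): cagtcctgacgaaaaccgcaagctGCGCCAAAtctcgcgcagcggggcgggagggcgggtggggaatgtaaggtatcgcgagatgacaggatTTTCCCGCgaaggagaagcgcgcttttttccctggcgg
UHRF1 (chr19:4909401-4909530, plus strand): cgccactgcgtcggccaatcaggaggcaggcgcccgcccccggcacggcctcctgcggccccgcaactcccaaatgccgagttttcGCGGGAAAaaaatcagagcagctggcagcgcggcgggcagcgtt
DNMT1 (chr19:10194924-10195053, minus strand): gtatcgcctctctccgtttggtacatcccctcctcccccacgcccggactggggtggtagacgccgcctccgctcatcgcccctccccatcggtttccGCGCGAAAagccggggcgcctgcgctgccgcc

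The matches lie close to the start sites. Counting the first transcribed base as 1 and the base before it as -1, the EZH2 word begins at 2, the HELLS words at -76 and -8, the UHRF1 word at -14 and the DNMT1 word at -2. A second UHRF1 window holds another match at -160 from its own start. In all, 5 of the 21 member windows, belonging to 4 of the 9 genes, held a match, against 3.315% of 35116 RefSeq windows and 3.992% of 27305 genes. Every E2F-type word holds a CpG site, and this background was not matched to the members in CpG content or windows per gene. The 5 windows with a match held 22 to 46 CpG sites, those without 3 to 46, and the median of all windows was 14. Whether the members exceed a matched background was not tested. E2F proteins are transcription factors of the G1 to S transition, and genes of DNA replication are their textbook targets. Of 22 listed S phase genes with a window, 14 held a match. CCAAT, the word bound by NF-Y (either strand), was in 8 of the 21 member windows and in 34.61% of all windows. TTTGAA or TTCGAA, the cell cycle homology words (either strand), were in 2 member windows and in 16.35% of all. The palindromic estrogen response word GGTCANNNTGACC was in 0 member windows and in 0.05695% of all. Of the 6 E2F-type matches, 0 shared a base with a match of another word. All words were searched with the expression results known, and a match is a description of the letters only.

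Gene totals ran from 26760897 to 48076414 reads per library, and every member had at least 60 reads in every library. Most markers of the labelled cell type were at or near 0. Of 12 glioma markers chosen for the check, OLIG2, S100B and POSTN had 0 reads in all 8 libraries, GFAP stayed at or below 0.135 CPM (reads scaled to a fixed library total) and FABP7 at or below 0.0240 CPM, while SOX2 lay between 11.3 and 30.1 CPM and CD44 between 46.9 and 63.3 CPM. All 12 luminal epithelium markers were above those levels in every library, with KRT8 between 2101 and 4431 CPM, CDH1 between 1730 and 2632 CPM and ESR1 between 105 and 144 CPM. These marker levels go against the label of a glioblastoma line, and the identity of the cells was not tested. ESR2 had 25 and 20 reads in the libraries labelled control, 23 and 21 in those labelled ERβ-KO, 6 and 18 in those labelled ERβ1, and 7 and 10 in those labelled ERβ5. In CPM these are 0.60 and 0.54 in control, 0.54 and 0.69 in ERβ-KO, 0.22 and 0.37 in ERβ1, and 0.20 and 0.36 in ERβ5. ESR2 thus was not lower in both libraries labelled ERβ-KO than in control, though reads per gene do not check an edit that leaves the RNA in place. Where an isoform is labelled as put back, ESR2 was lower in CPM than in every control and ERβ-KO library, at few reads. Group names below are those of the labels, and every direction is between libraries so labelled.

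The levels of the members spanned a wide range. Per kilobase of the MANE Select transcript, DNMT1 had the highest group means, from 19.3 to 28.04 TMM-scaled CPM (CPM after edgeR's library scaling), and EZH2 followed with 10.9 to 23.2. HELLS (2.82 to 7.003), TET3 (5.19 to 5.48), TET2 (3.77 to 4.68), DNMT3A (3.08 to 3.50) and DNMT3B (3.14 to 3.35) lay close together on this scale. TET1 (0.635 to 0.827) and UHRF1 (0.501 to 1.46) were the lowest. On this scale DNMT3A and DNMT3B overlapped in every group except ERβ5, HELLS was above TET3 in both ERβ-KO libraries and below it in the other 6, and UHRF1 was above TET1 in control and ERβ-KO, overlapped it in ERβ5 and was below it in ERβ1. The UHRF1 level is uncertain, because 71.62% of its transcript has a copy of at least 96% identity on chromosome 12 and reads with more than 1 place in the genome were not counted in genes. For EZH2 that share is 8.402%, for TET1 2.871%, and for each of the other members under 1%.

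**Figure D1:**
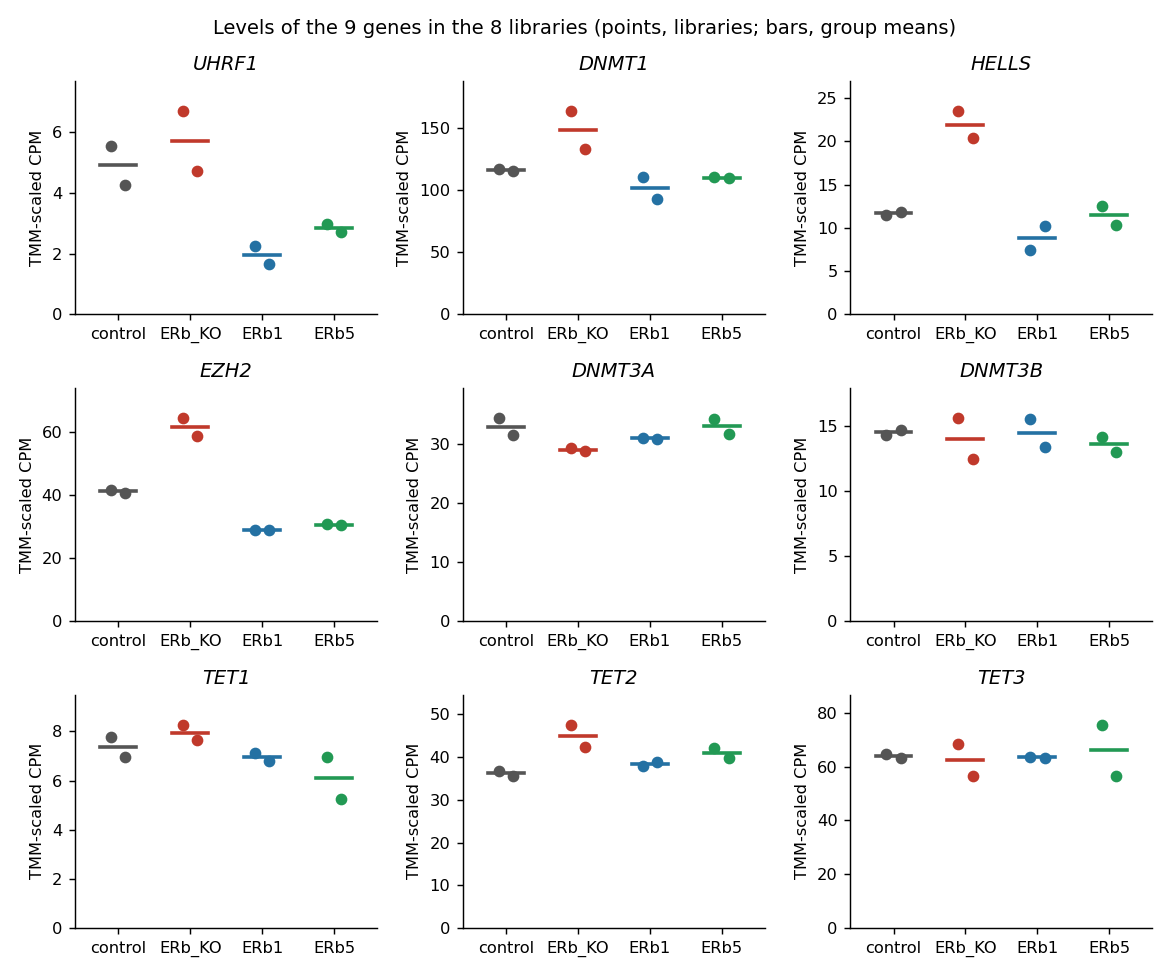
Levels of the 9 genes (y axes, TMM-scaled CPM, each from 0) in the 8 libraries (points) of the 4 groups, with group means as bars. UHRF1 and EZH2 were lower in all 4 libraries labelled ERb1 and ERb5 than in the other 4, and HELLS, EZH2 and DNMT1 were higher in both libraries labelled ERb_KO than in the other 6.

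UHRF1, the reader of half-methylated CpG sites, lies on the plus strand of chromosome 19 (GRCh37, chr19:4903092-4962165). Its levels were 5.55 and 4.26 TMM-scaled CPM in the libraries labelled control, 6.68 and 4.71 in those labelled ERβ-KO, 2.25 and 1.65 in those labelled ERβ1, and 2.96 and 2.72 in those labelled ERβ5. All 4 libraries labelled ERβ1 or ERβ5 were below all 4 labelled control or ERβ-KO, and the control and knockout libraries overlapped. UHRF1 fell by 1.58 ± 0.24 (SE) on the log2 scale in ERβ1 against ERβ-KO, which is 0.334 of the knockout level (edgeR adjusted p = 0.00103). It fell by 1.01 ± 0.23 in ERβ5 against ERβ-KO (edgeR adjusted p = 0.0106). Of the 9 genes, UHRF1 had the largest decrease in both of these comparisons, though in ERβ5 its estimate and that of EZH2 differed by less than their errors. It was also lower than in control, by 1.36 ± 0.24 in ERβ1 (edgeR adjusted p = 0.00937) and by 0.79 ± 0.23 in ERβ5 (edgeR adjusted p = 0.0465). Without ERβ-KO replicate 1 the ERβ5 against ERβ-KO change was -0.73 (edgeR adjusted p = 0.087). The ERβ1 against control call was lost without control replicate 1 or ERβ1 replicate 2 (edgeR adjusted p = 0.117 and 0.103), and the ERβ5 against control call without any one of the libraries of those 2 groups (edgeR adjusted p = 0.0672 to 0.356).

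DNMT1, the maintenance methyltransferase itself (chr19:10244018-10341962, minus strand), fell in the same 2 comparisons with ERβ-KO as UHRF1, by less. Its levels were 117 and 115 TMM-scaled CPM in control, 163 and 133 in ERβ-KO, 111 and 92.9 in ERβ1, and 110 and 109 in ERβ5. Both knockout libraries were above the other 6, and the gap between the knockout replicates was wider than within any other group. DNMT1 fell by 0.54 ± 0.12 on the log2 scale in ERβ1 against ERβ-KO (edgeR adjusted p = 0.00799) and by 0.43 ± 0.12 in ERβ5 against ERβ-KO (edgeR adjusted p = 0.0222). The ERβ-KO against control difference was 0.35 ± 0.12 and did not pass (edgeR adjusted p = 0.0623), with a 95% interval of 0.09 to 0.61. It passed under 10 of the 17 alternatives tried, among them DESeq2 (adjusted p = 0.0497) and no filter on low counts (edgeR adjusted p = 0.0232). Both decreases missed the threshold without ERβ-KO replicate 1, at -0.39 in ERβ1 (edgeR adjusted p = 0.0757) and -0.28 in ERβ5 (edgeR adjusted p = 0.169), and the second also without ERβ5 replicate 2 (edgeR adjusted p = 0.0687). The DNMT1 gene overlaps S1PR2 on the same strand, and reads in a shared part cannot be told apart.

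HELLS (chr10:96305086-96373662, plus strand) had the largest rise of the 9 genes in the knockout. Its levels were 11.5 and 11.8 TMM-scaled CPM in control, 23.5 and 20.4 in ERβ-KO, 7.44 and 10.2 in ERβ1, and 12.6 and 10.4 in ERβ5. The 2 knockout libraries stood above the other 6, and the ERβ5 libraries bracketed those of control. HELLS rose by 0.91 ± 0.17 on the log2 scale in ERβ-KO against control, 1.88-fold (edgeR adjusted p = 0.00544). It fell by 1.30 ± 0.17 in ERβ1 against ERβ-KO (edgeR adjusted p = 0.000361) and by 0.93 ± 0.17 in ERβ5 against ERβ-KO (edgeR adjusted p = 0.00379). Against control it was -0.39 ± 0.17 in ERβ1 (edgeR adjusted p = 0.239) and -0.02 ± 0.17 in ERβ5 (edgeR adjusted p = 0.949), neither of which passed. The rise in the knockout lay between 0.80 and 1.01 with single libraries left out, and missed the threshold without control replicate 1, control replicate 2 or ERβ-KO replicate 1 (edgeR adjusted p = 0.0533, 0.0628 and 0.0563).

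EZH2, the methyltransferase of PRC2 (chr7:148504349-148581413, minus strand), had the smallest standard errors of the 9 genes. Its levels were 41.6 and 40.9 TMM-scaled CPM in control, 64.5 and 58.9 in ERβ-KO, 29.0 and 29.0 in ERβ1, and 30.8 and 30.6 in ERβ5. No 2 groups overlapped: the knockout libraries were highest, control came next, and the libraries labelled ERβ1 and ERβ5 were below both. EZH2 rose by 0.58 ± 0.10 on the log2 scale in ERβ-KO against control (edgeR adjusted p = 0.00475). It fell by 1.09 ± 0.10 in ERβ1 against ERβ-KO (edgeR adjusted p = 3.85e-05) and by 1.01 ± 0.10 in ERβ5 against ERβ-KO (edgeR adjusted p = 0.000231). It also lay below control, by 0.51 ± 0.10 in ERβ1 (edgeR adjusted p = 0.0178) and by 0.43 ± 0.10 in ERβ5 (edgeR adjusted p = 0.0182). The rise missed the threshold without control replicate 1, control replicate 2 or ERβ-KO replicate 1 (edgeR adjusted p = 0.0554, 0.077 and 0.053), at changes between 0.51 and 0.60. The ERβ1 against control call was lost without any one of the 4 libraries of those groups (edgeR adjusted p = 0.074 to 0.237) and the ERβ5 against control call without control replicate 1, control replicate 2 or ERβ5 replicate 2 (edgeR adjusted p = 0.173, 0.119 and 0.0612).

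EZH1, the second catalytic subunit that PRC2 can use, did not follow it. EZH1 had group means of 18.5 TMM-scaled CPM in control, 19.5 in ERβ-KO, 20.3 in ERβ1 and 19.4 in ERβ5, and no comparison of it passed (ERβ1 against ERβ-KO 0.06 ± 0.12, edgeR adjusted p = 0.736). The ratio of EZH2 to EZH1 reads was 2.31 and 2.16 in control, 3.33 and 3.01 in ERβ-KO, 1.36 and 1.51 in ERβ1, and 1.56 and 1.60 in ERβ5. The 4 libraries labelled ERβ1 or ERβ5 thus had the lowest ratios and the 2 knockout libraries the highest.

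Among the other PRC2 subunits, the core scaffold SUZ12 moved with EZH2. SUZ12 had group means of 35.8 TMM-scaled CPM in control, 58.8 in ERβ-KO, 33.0 in ERβ1 and 31.8 in ERβ5. It rose by 0.71 ± 0.16 in ERβ-KO against control (edgeR adjusted p = 0.0136), and fell by 0.83 ± 0.16 in ERβ1 and by 0.88 ± 0.16 in ERβ5 against ERβ-KO (edgeR adjusted p = 0.0040 and 0.00407). PHF19, an accessory subunit that reads the H3K36 mark, fell by 1.21 ± 0.14 in ERβ1 (edgeR adjusted p = 0.000123) and by 0.54 ± 0.13 in ERβ5 (edgeR adjusted p = 0.0135) against ERβ-KO. PHF19 was also 0.67 ± 0.14 higher in ERβ5 than in ERβ1 (edgeR adjusted p = 0.0159). EED, the core subunit that binds the H3K27 mark, fell by 0.38 ± 0.11 in ERβ1 against ERβ-KO (edgeR adjusted p = 0.0309), and its ERβ5 value of -0.24 ± 0.11 did not pass (edgeR adjusted p = 0.136). Of the 10 PRC2 partners, 1 rose in ERβ-KO against control, and 3 fell in ERβ1 and 3 in ERβ5 against ERβ-KO, where 8.98% of all genes rose in the first and 12.5% and 13.5% fell in the others. Their medians were 0.12, -0.07 and -0.20. The count in ERβ-KO against control fell without any one of the control or ERβ-KO libraries and grew without either ERβ1 library. The count in ERβ5 fell without ERβ-KO replicate 2. In each of these fits the count over all genes moved the same way.

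The de novo methyltransferases DNMT3A (chr2:25450724-25565459, minus strand) and DNMT3B (chr20:31350191-31397165, plus strand) passed in none of the 6 comparisons. DNMT3A had 34.3 and 31.5 TMM-scaled CPM in control, 29.3 and 28.8 in ERβ-KO, 31.1 and 30.8 in ERβ1, and 34.2 and 31.7 in ERβ5. The knockout libraries were the lowest, but the ERβ-KO against control difference of -0.18 ± 0.11 did not pass (95% interval -0.42 to 0.05, edgeR adjusted p = 0.25). DNMT3B had 14.4 and 14.7 in control, 15.6 and 12.5 in ERβ-KO, 15.5 and 13.4 in ERβ1, and 14.2 and 13.0 in ERβ5. All 4 groups of DNMT3B overlapped except ERβ5 and control. In ERβ1 against ERβ-KO, its 95% interval of -0.28 to 0.35 on the log2 scale leaves room for changes of that size in either direction.

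The 3 TET dioxygenases also passed in none of the 6 comparisons. TET2 (chr4:106067032-106200973, plus strand) had 36.8 and 35.5 TMM-scaled CPM in control, 47.5 and 42.3 in ERβ-KO, 38.0 and 38.9 in ERβ1, and 42.1 and 39.9 in ERβ5. Its 2 knockout libraries were the highest, and the difference from control was 0.31 ± 0.11 (95% interval 0.08 to 0.54, edgeR adjusted p = 0.0609). Over the 17 alternatives tried, that TET2 difference ranged from 0.09 to 0.39. TET1 (chr10:70320094-70454244, plus strand) had 7.76 and 6.96 in control, 8.26 and 7.64 in ERβ-KO, 7.14 and 6.80 in ERβ1, and 6.95 and 5.25 in ERβ5. The lowest TET1 value was that of ERβ5 replicate 2, and the ERβ5 against ERβ-KO difference of -0.38 ± 0.17 (edgeR adjusted p = 0.11) was -0.60 without ERβ5 replicate 1 (edgeR adjusted p = 0.035). TET3 (chr2:74212037-74335303, plus strand) had 64.6 and 63.4 in control, 68.5 and 56.6 in ERβ-KO, 63.8 and 63.2 in ERβ1, and 75.5 and 56.7 in ERβ5. For TET3 every group overlapped every other, and its 6 differences lay between -0.03 and 0.08. The TET2 gene overlaps an antisense RNA, and whether the counting used strand is not given in the sources used here.

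Comparison by comparison, the members that changed were these. In ERβ-KO against control, 2 of the 9 rose (HELLS and EZH2) and 0 fell, where 17.5% of all genes tested passed and 8.98% rose. In ERβ1 against ERβ-KO, 4 of the 9 fell (UHRF1, HELLS, EZH2 and DNMT1) and 0 rose, where 24.9% of all genes passed and 12.5% fell. In ERβ5 against ERβ-KO the same 4 genes fell and 0 rose, where 28.2% passed and 13.5% fell. These comparisons share the knockout libraries, so the 2 decreases and the rise are not independent of each other. The median change of the 9 genes was 0.22 in ERβ-KO against control, -0.22 in ERβ1 and -0.38 in ERβ5 against ERβ-KO, beside medians over all genes of 0.01, -1e-04 and 0.01.

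Leaving out single libraries moved these counts. In ERβ-KO against control the 2 became 0 without control replicate 1, control replicate 2 or ERβ-KO replicate 1, where the count over all genes fell too, from 2434 to 506, 237 and 419. It became 4 (DNMT1 and TET2 as well) without ERβ5 replicate 1 or without ERβ5 replicate 2, where 3186 and 3226 of all genes passed. In ERβ1 against ERβ-KO the 4 became 3 (DNMT1 missing) without ERβ-KO replicate 1, where the count over all genes went from 3466 to 1843. In ERβ5 against ERβ-KO the 4 became 2 (HELLS and EZH2) without that library, where it went from 3922 to 1859.

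Against control, EZH2 and UHRF1 were lower in both isoform groups. In ERβ1 against control these 2 of the 9 fell and 0 rose, where 4.06% of all genes passed and 2.7% fell. In ERβ5 against control the same 2 fell and 0 rose, where 13.2% passed and 6.31% fell. With 1 library left out at a time, the ERβ1 against control change lay between -0.52 and -0.50 for EZH2 and between -1.57 and -1.12 for UHRF1. In ERβ5 against control it lay between -0.44 and -0.41 for EZH2 and between -0.97 and -0.58 for UHRF1. As given above, the calls were lost in several of these fits, in which a group kept 1 library.

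The isoform groups were compared directly as well. In ERβ5 against ERβ1, 0 of the 9 genes passed with edgeR and 0 with DESeq2, where 4.66% of all genes passed with edgeR, and 1 member (UHRF1) had an unadjusted edgeR p under 0.05. UHRF1 was 0.57 ± 0.26 higher in ERβ5 (95% interval 0.01 to 1.13, edgeR adjusted p = 0.263) and HELLS 0.37 ± 0.17 higher (95% interval -0.01 to 0.74, edgeR adjusted p = 0.286). For EZH2 the difference was 0.08 ± 0.10 (95% interval -0.14 to 0.31) and for DNMT1 0.11 ± 0.12 (95% interval -0.15 to 0.37). The intervals of UHRF1 and HELLS thus reach farther above 0 than those of EZH2 and DNMT1.

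**Figure D2:**
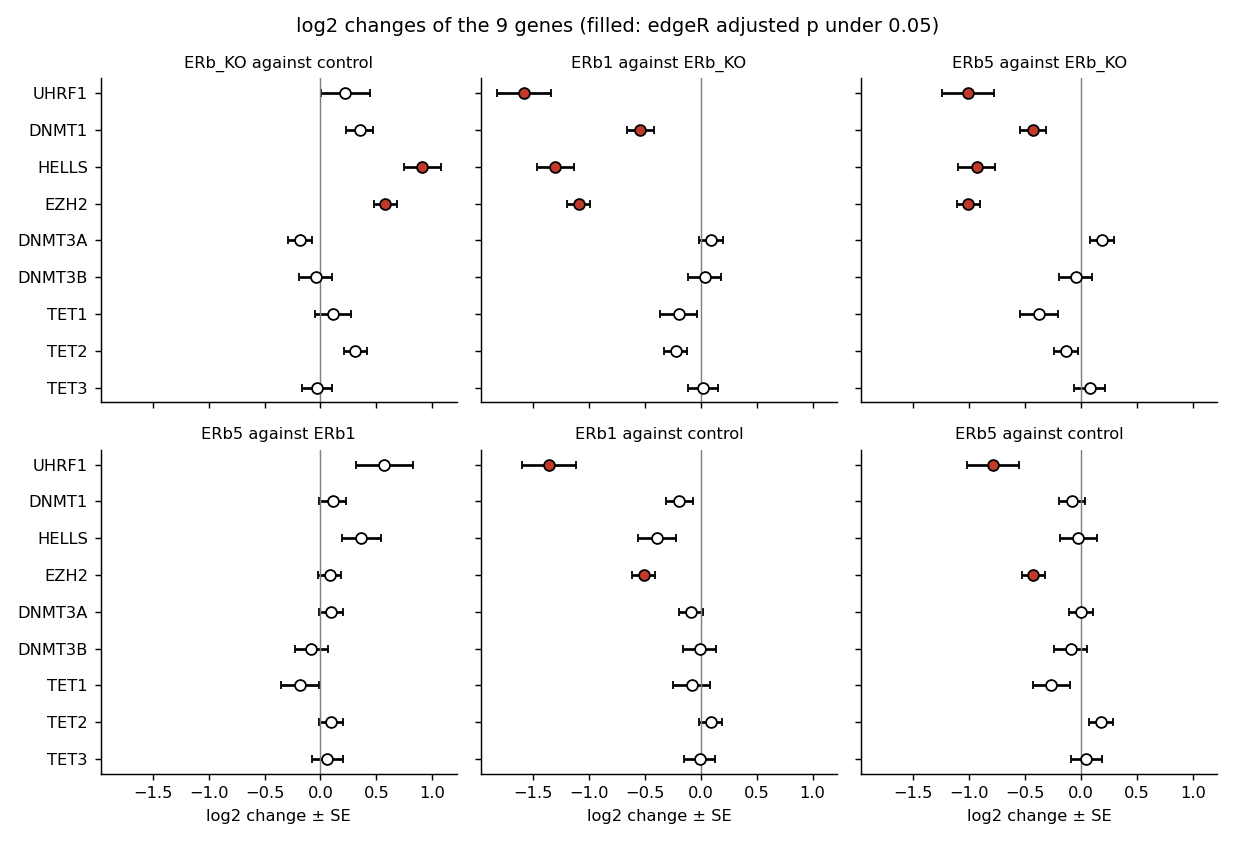
log2 changes (x axes) of the 9 genes with their standard errors in the 6 comparisons, filled where the edgeR adjusted p was under 0.05. UHRF1, DNMT1, HELLS and EZH2 fell in both comparisons of an isoform with ERb_KO, only UHRF1 and EZH2 passed in the comparisons of an isoform with control, and none of the 9 passed in ERb5 against ERb1.

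Partners of the DNMT and UHRF proteins were described from a list of 8, of which 7 were tested. CDCA7, which recruits HELLS to chromatin, had group means of 12.8 TMM-scaled CPM in control, 16.5 in ERβ-KO, 6.26 in ERβ1 and 6.25 in ERβ5. It fell by 1.38 ± 0.17 in ERβ1 and by 1.39 ± 0.17 in ERβ5 against ERβ-KO (edgeR adjusted p = 0.00024 and 0.000509), and it was lower than control in both (-1.01 and -1.02, edgeR adjusted p = 0.00638 and 0.00242). Its relative CDCA7L fell by 0.41 ± 0.12 in ERβ1 and by 0.65 ± 0.12 in ERβ5 against ERβ-KO (edgeR adjusted p = 0.0237 and 0.00397). UHRF2, the paralog of UHRF1, fell by 0.34 ± 0.11 in ERβ1 and by 0.61 ± 0.12 in ERβ5 (edgeR adjusted p = 0.0468 and 0.00465). USP7, the deubiquitinase that stabilizes UHRF1 and DNMT1, stood at -0.10 ± 0.10 and -0.16 ± 0.10 and did not pass (edgeR adjusted p = 0.502 and 0.255). In all, 0 of the 7 passed in ERβ-KO against control, 1 rose and 3 fell in ERβ1, and 0 rose and 4 fell in ERβ5 against ERβ-KO, where 17.5%, 24.9% and 28.2% of all genes passed. The medians were 0.12, -0.34 and -0.61. Fewer passed in ERβ1 without any one of the control or ERβ-KO libraries or ERβ1 replicate 1. The count over all genes fell in each of these fits too.

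Partners of the TET enzymes and genes of demethylation repair (14 genes, all tested) moved in both directions. TDG, the glycosylase that cuts out oxidized methylcytosine, had means of 28.5 TMM-scaled CPM in control, 36.4 in ERβ-KO, 28.9 in ERβ1 and 29.0 in ERβ5. It rose by 0.35 ± 0.10 in ERβ-KO (edgeR adjusted p = 0.0368) and fell by 0.33 ± 0.10 in both ERβ1 and ERβ5 against ERβ-KO (edgeR adjusted p = 0.0351 and 0.0366). APEX1, the endonuclease of base excision repair, went the other way, falling by 0.50 ± 0.10 in the knockout (edgeR adjusted p = 0.00715) and rising by 0.38 ± 0.10 in ERβ1 against it (edgeR adjusted p = 0.0153). D2HGDH, which breaks down D-2-hydroxyglutarate, fell by 0.42 ± 0.13 in the knockout (edgeR adjusted p = 0.0429) and was 0.58 ± 0.13 and 0.57 ± 0.13 higher in ERβ1 and ERβ5 than there (edgeR adjusted p = 0.00815 and 0.0102). CXXC5, a CXXC-domain partner of TET2, fell by 0.39 ± 0.12 in the knockout (edgeR adjusted p = 0.0487) and rose by 0.63 ± 0.12 in ERβ5 against it (edgeR adjusted p = 0.0051). The list had 2 higher and 4 lower in ERβ-KO against control, 3 and 2 in ERβ1, and 3 and 3 in ERβ5 against ERβ-KO, with medians of -0.23, 0.03 and -0.05. That is 6, 5 and 6 of 14 genes, where 17.5%, 24.9% and 28.2% of all genes passed. Fewer passed in ERβ-KO against control without any one of the libraries of those groups. Fewer passed in ERβ1 without any one of the control, ERβ-KO or ERβ1 libraries. In ERβ5 fewer passed without either ERβ-KO library or ERβ5 replicate 2. The count over all genes fell too in each of these fits but 1. In ERβ1 without ERβ1 replicate 2 it grew.

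Of 8 genes listed as methyl-CpG readers, 1 rose and 1 fell in each of the 3 comparisons of the knockout with control or an isoform group. Of all genes, 17.5%, 24.9% and 28.2% passed there. MBD4, a glycosylase that binds methylated CpG, rose by 0.42 ± 0.10 in ERβ-KO against control (edgeR adjusted p = 0.0218) and fell by 0.42 ± 0.11 in ERβ1 against ERβ-KO (edgeR adjusted p = 0.0148). MBD3, a subunit of the NuRD complex, fell by 0.73 ± 0.20 in the knockout (edgeR adjusted p = 0.0329) and rose by 0.70 ± 0.20 in ERβ5 against it (edgeR adjusted p = 0.0279). MBD3 was the 1 listed gene that fell in ERβ-KO against control and the 1 that rose in ERβ5 against ERβ-KO. ZBTB38, a zinc finger reader, fell by 0.37 ± 0.11 in ERβ5 against ERβ-KO (edgeR adjusted p = 0.0336). Among 6 genes of methyl donor supply, AHCY, which clears S-adenosylhomocysteine, fell by 0.57 ± 0.10 in the knockout (edgeR adjusted p = 0.00504) and was 0.34 ± 0.10 higher in ERβ1 than there (edgeR adjusted p = 0.0301), while its ERβ5 value of -0.030 ± 0.10 did not pass (edgeR adjusted p = 0.844). MTRR, which keeps methionine synthase active, fell by 0.37 ± 0.10 in both ERβ1 and ERβ5 against ERβ-KO (edgeR adjusted p = 0.0243 and 0.0236). The H3K27 demethylase KDM6B rose by 0.37 ± 0.12 in ERβ1 and by 0.65 ± 0.12 in ERβ5 against ERβ-KO (edgeR adjusted p = 0.0363 and 0.00362), the opposite direction to EZH2. Without ERβ-KO replicate 1, the calls of readers and donor supply genes in the 3 comparisons were lost, as was that of KDM6B in ERβ1. The count over all genes fell in each of the 3 as well.

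Genes known to be silenced by these marks were mostly too low to test. Of 16 germline genes under promoter methylation, 2 passed the filter, and BRDT, a testis bromodomain gene, had means of 0.437 TMM-scaled CPM in control, 0.191 in ERβ-KO, 1.31 in ERβ1 and 0.891 in ERβ5. BRDT rose by 2.76 ± 0.39 in ERβ1 and by 2.24 ± 0.41 in ERβ5 against ERβ-KO (edgeR adjusted p = 0.000606 and 0.00418), at levels near 1 CPM. Of 18 PRC2 target genes, 10 were tested. ONECUT2 rose by 0.50 ± 0.15 in ERβ-KO against control and fell by 0.48 ± 0.15 in ERβ1 against ERβ-KO (edgeR adjusted p = 0.0456 and 0.0408), GATA4 rose by 2.08 ± 0.41 in ERβ5 against control from 0.430 to 1.88 CPM (edgeR adjusted p = 0.00648), and FOXF1 rose by 2.76 ± 0.58 there to 0.628 CPM (edgeR adjusted p = 0.00872). In ERβ1 against ERβ-KO 0 PRC2 targets rose and 1 fell, and in ERβ5 against ERβ-KO 0 passed, where 24.9% and 28.2% of all genes passed. DNA methylation and histone marks were not measured in these libraries.

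**Figure D3:**
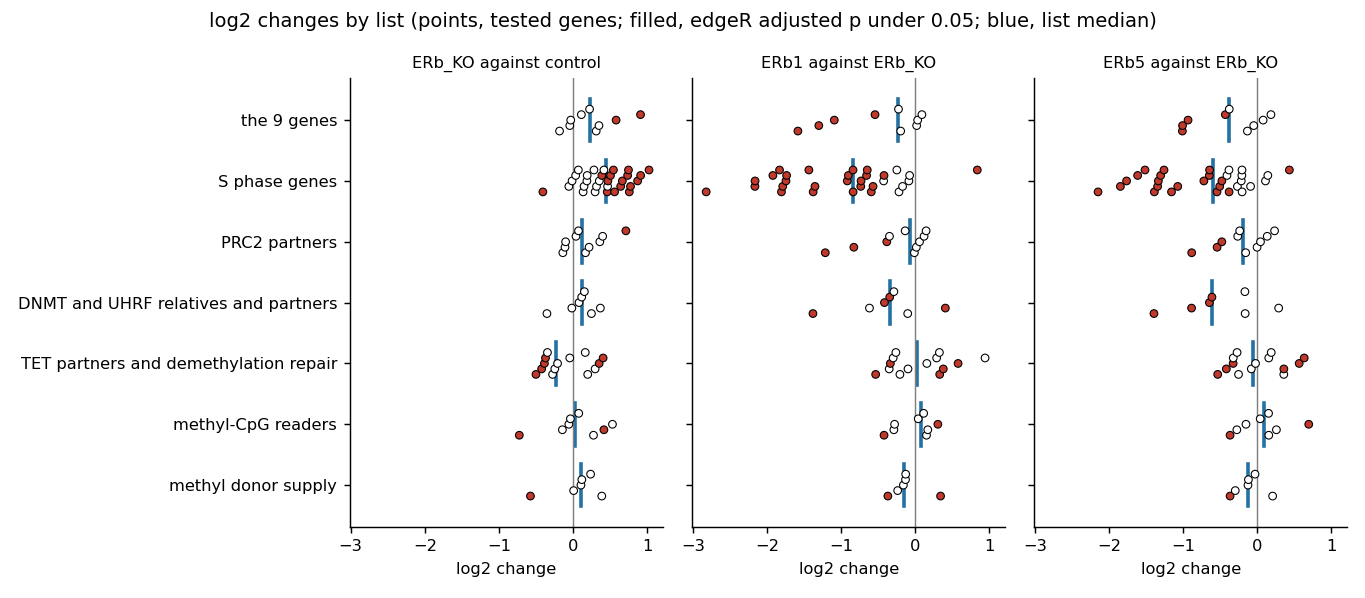
log2 changes (x axes) of the tested genes of each list in the 3 comparisons that involve ERb_KO and either control or an isoform, filled where the edgeR adjusted p was under 0.05, with list medians in blue. The S phase list has medians of 0.44, -0.84 and -0.59 from left to right, farther from 0 than those of the 9 genes. The medians of the readers and the donor supply genes lie nearer to 0 than those of the 9 genes, with single genes farther out on both sides.

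Genes of the S phase of the cell cycle moved with the 4 members that fell. Of 30 listed S phase genes, none of which is a member, 15 rose and 1 fell in ERβ-KO against control, 1 rose and 23 fell in ERβ1 against ERβ-KO, and 1 rose and 19 fell in ERβ5 against ERβ-KO, with medians of 0.44, -0.84 and -0.59. Of all genes, 8.98% rose in the first, and 12.5% and 13.5% fell in the others. RRM2, the small subunit of ribonucleotide reductase, had group means of 116 TMM-scaled CPM in control, 236 in ERβ-KO, 33.4 in ERβ1 and 53.3 in ERβ5. RRM2 fell by 2.82 ± 0.14 in ERβ1 against ERβ-KO (edgeR adjusted p = 1.91e-06), and CDC45, a subunit of the replicative helicase, fell by 1.92 ± 0.12 (edgeR adjusted p = 5.19e-06). The exception was UNG, the uracil glycosylase, which fell by 0.41 ± 0.10 in the knockout (edgeR adjusted p = 0.0192) and was 0.84 ± 0.10 higher in ERβ1 than there (edgeR adjusted p = 0.000192). In ERβ5 against ERβ1, 4 S phase genes were higher and 1 lower, where 4.66% of all genes passed. RRM2 was among the higher ones, by 0.67 ± 0.14 (edgeR adjusted p = 0.016).

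By library, the mean log2 CPM of the S phase list was 5.17 and 5.01 in control, 5.60 and 5.40 in ERβ-KO, 4.50 and 4.50 in ERβ1, and 4.78 and 4.70 in ERβ5. The group means of UHRF1, HELLS, EZH2 and DNMT1 follow the same order, with ERβ-KO highest, then control, ERβ5 and ERβ1. The part of the S phase genes in the changes of the members was not tested, and in bulk RNA fewer cells in a phase and less RNA per cell cannot be told apart. Without control replicate 1, control replicate 2 or ERβ-KO replicate 1, fewer S phase genes passed in ERβ-KO against control. The count over all genes fell in each of these fits too.

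Cell type markers also differed between these groups. Luminal epithelium markers were lower in the knockout and higher in both isoform groups where they passed. Of the 12, 3 fell in ERβ-KO against control, 7 rose in ERβ1 and 5 rose in ERβ5 against ERβ-KO, and 0 passed in the other direction, where 17.5%, 24.9% and 28.2% of all genes passed. The number that passed grew in ERβ-KO against control without either ERβ5 library, and fell in ERβ1 against ERβ-KO without ERβ1 replicate 1. In each of these fits the count over all genes moved the same way. Their summed level was 15089 and 15869 CPM in control, 13279 and 13436 in ERβ-KO, 19086 and 18250 in ERβ1, and 17043 and 17878 in ERβ5. KRT19, a keratin, fell by 0.82 ± 0.11 in the knockout (edgeR adjusted p = 0.00142) and was 1.14 ± 0.11 higher in ERβ1 and 0.84 ± 0.11 higher in ERβ5 than there (edgeR adjusted p = 4.73e-05 and 0.000783). Of the 12 glioma markers, 6 were tested and 0, 4 and 2 fell in the 3 comparisons, with summed levels of 87.4 and 93.0 CPM in control, 104 and 103 in ERβ-KO, 73.2 and 73.3 in ERβ1, and 76.4 and 77.5 in ERβ5. VIM, the intermediate filament vimentin, fell by 1.90 ± 0.30 in ERβ1 and by 1.26 ± 0.28 in ERβ5 against ERβ-KO (edgeR adjusted p = 0.00125 and 0.0102). Of 14 immune, endothelial and fibroblast markers, AIF1 and DCN had 0 reads in all libraries, 3 were tested, and the summed level lay between 20.9 and 36.4 CPM. CD68, a lysosomal protein of macrophages, was 0.86 ± 0.18 higher in ERβ5 than in ERβ-KO (edgeR adjusted p = 0.00786), and 0 of the 3 passed in the other two comparisons. The part of these markers in the changes of the members was not tested.

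A trend with GC content also moved with the knockout. Over 13249 genes, the correlation across genes between a library's deviation from the mean of all libraries and transcript GC content was -0.56 and -0.46 in the libraries labelled ERβ-KO, 0.13 and 0.19 in control, 0.35 and -0.14 in ERβ1, and 0.12 and 0.34 in ERβ5. The HELLS transcript holds 38.81% G and C, EZH2 44.91%, DNMT1 54.93% and UHRF1 55.74%. HELLS and EZH2, which rose in the knockout, thus had the lowest GC content of these 4 genes. The part of this trend in the changes of the members was not tested. With the trend in GC content and length removed from each library, HELLS rose by 0.61 in the knockout in place of 0.91, and fell by 1.03 in ERβ1 and by 0.59 in ERβ5 against ERβ-KO. The same 4 members passed in both isoform comparisons with that correction, and DNMT1 passed in ERβ-KO against control at 0.44 (edgeR adjusted p = 0.0105).

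**Figure D4:**
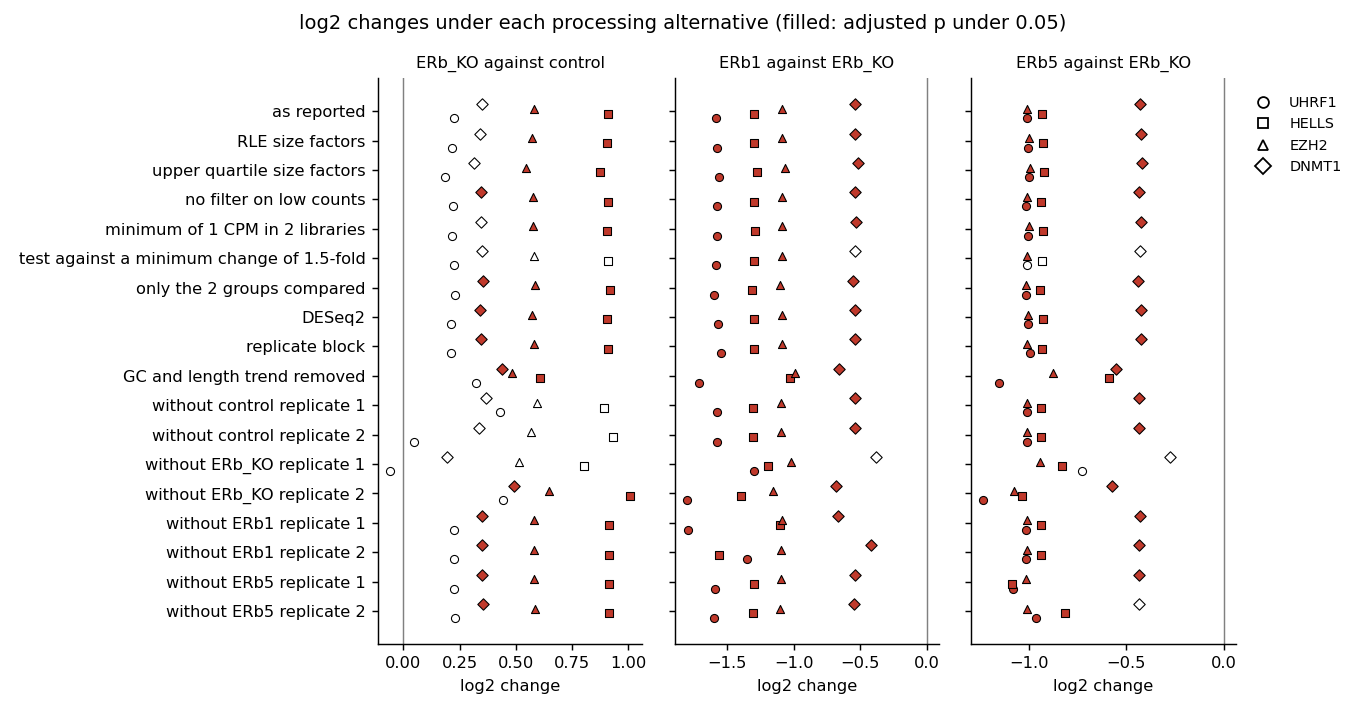
log2 changes (x axes, scales differ between panels) of UHRF1, HELLS, EZH2 and DNMT1 as reported and under 17 processing alternatives, in the 3 comparisons that involve ERb_KO and either control or an isoform, filled where the adjusted p was under 0.05. UHRF1, HELLS and EZH2 are filled under every alternative in ERb1 against ERb_KO, EZH2 under every alternative in ERb5 against ERb_KO, and UHRF1 under none in ERb_KO against control.

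Genes with the pattern most like that of a member were named by the highest Pearson correlation of log2 CPM over the 8 libraries, among genes with a mean of at least 5 CPM. The libraries of a group share their cells, so these values describe the 8 libraries and carry no test. For EZH2 they were GPSM2 (0.994), CCNE2 (0.991), which is the S phase cyclin E2, and CDV3 (0.989). For UHRF1 they were NCAPD2 (0.978), a condensin subunit, TP53BP2 (0.974) and the replicative helicase subunit MCM7 (0.974). For HELLS they were RPS6KA3 (0.991), ANGEL2 (0.990) and DNAJC2 (0.990), and for DNMT1 FN1 (0.973), which encodes fibronectin, GKAP1 (0.960) and NFX1 (0.959). For the members that passed nowhere, the closest genes were RNF8 for DNMT3A (0.949), the Polycomb gene CBX7 for DNMT3B (0.964), MAP3K7 for TET1 (0.985), PSMD7 for TET2 (0.975) and HERC1 for TET3 (0.973).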

How the data were processed

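Total RNA of 8 libraries was sequenced with 50-base single-end reads on an Illumina HiSeq, per the labels' protocols. The deposited values are raw counts of reads per gene, which the authors made with bcl2fastq, TopHat2 2.0.8b on hg19 and HTSeq, per the submitters' processing notes, with DESeq named in the series' design text. Which annotation and which strand setting HTSeq used, and its version, is not given in the sources used here. The files also list reads not counted in a gene: those with more than 1 place took 34.7% to 39.9% of counted reads and those in no feature 7.01% to 7.79%, and both were left out of library sizes. Gene totals were 26760897 to 48076414.

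Groups came from the labels. Differences were tested with edgeR 4.0.16 (R 4.3.3): TMM scaling, filterByExpr (minimum count 10, minimum total 15), a quasi-likelihood fit with robust estimation over all 8 libraries and Benjamini-Hochberg adjustment over 13915 genes, with "rose" and "fell" for an adjusted p under 0.05. The common biological coefficient of variation was 0.102. Standard errors are the log2 change over the square root of F, and 95% intervals use the t quantile of the same fit. The steps were tested on simulated counts first. Each library was counted as 1 sample. Replicates of a group differed by more than sampling noise (chi-square per degree of freedom 7.69 to 42.1), which does not show that they are separate cultures.

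The alternatives were RLE and upper quartile factors, other filters, a test against a 1.5-fold change, fits of 2 groups, DESeq2 1.42.0, a replicate block, removal of each library's trend with GC content and length, and leaving out each library. GC content and lengths came from GENCODE v44 on GRCh37, matched for 95.2% of genes tested, positions likewise, and copies of transcripts from a blastn 2.17.0 search of that genome (hits of at least 50 bases). Promoter windows are RefSeq's on GRCh38.p14. All 9 members are named in every comparison. From each other list the text names up to 3 genes past the threshold with the smallest adjusted p, always EED, SUZ12, EZH1, TDG, USP7, UHRF2 and CDCA7, and for each member the closest of the 3 genes most like it, UNG being added after its values were seen. The members and lists were chosen with earlier results of these data known. Some list genes that this rule would name are not reported here.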

Additional observations from a re-analysis of the deposited data

How the results depend on the processing

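The 54 changes of single members were recomputed under 17 alternatives, 918 values in all: 835 kept their direction and side of the threshold, 33 no longer passed, 14 newly passed and 36 changed sign. UHRF1, HELLS and EZH2 in ERβ1 against ERβ-KO and EZH2 in ERβ5 against ERβ-KO passed under all 17. Of 918 recomputed list counts, 210 moved by more than 1.5 times. Scaling by library totals in place of TMM left 35 of 36 group mean levels of the members within 1 SD.

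The number of members that passed was, with each library left out in turn, 0 to 4 in ERβ-KO against control, 3 to 4 in ERβ1 and 2 to 5 in ERβ5 against ERβ-KO, 0 to 0 in ERβ5 against ERβ1, 0 to 2 in ERβ1 against control and 0 to 2 in ERβ5 against control. A lone library was assumed to vary like the other groups. Tested against a 1.5-fold change, 0 passed in ERβ-KO against control, 1 (EZH2) in ERβ5 against ERβ-KO, and 0 in each of the comparisons of an isoform with control. In a fit of the 2 groups alone, 4 passed in ERβ-KO against control. The causes were not tested.

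The labels do not say that replicate numbers pair the libraries, and deviations of same-numbered libraries correlated between -0.12 and 0.14 over the 6 pairs of groups. With a replicate block, 3 members passed in ERβ-KO against control, 4 in ERβ1 and 4 in ERβ5 against ERβ-KO, and 0 in ERβ5 against ERβ1. In ERβ1 and ERβ5 against control 2 and 2 passed. Of the 13915 genes tested, 2532, 3519, 3929, 652, 581 and 1850 passed in these comparisons, in that order. DNMT1 was the member added in ERβ-KO against control (edgeR adjusted p = 0.0462).

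The values that changed sign belonged to members that passed neither as reported nor under any of these alternatives in that comparison. Without GC and length trends, in ERβ-KO against control DNMT3B was 0.023, TET1 -0.080 and TET3 0.026; in ERβ1 against ERβ-KO DNMT3A -0.0029, DNMT3B -0.057 and TET3 -0.059; in ERβ5 against ERβ-KO TET2 0.096 and TET3 -0.066; in ERβ5 against ERβ1 TET3 -0.0071; in ERβ5 against control DNMT3A -0.067, HELLS 0.019 and TET3 -0.040. DNMT3A in ERβ5 against control was -0.0040 with no filter and -0.022 with upper quartile factors. In ERβ1 against control, fitted on those 2 groups, DNMT3B was 0.0024 and TET3 0.0026. With a library left out, the ranges were, in ERβ-KO against control, UHRF1 -0.059 to 0.44, DNMT3B -0.22 to 0.11 and TET3 -0.18 to 0.10; in ERβ1 against ERβ-KO, DNMT3B -0.12 to 0.21 and TET3 -0.11 to 0.16; in ERβ5 against ERβ-KO, DNMT3B -0.20 to 0.13 and TET3 -0.15 to 0.26; in ERβ5 against ERβ1, DNMT1 -0.010 to 0.24, DNMT3B -0.19 to 0.024 and TET3 -0.16 to 0.25; in ERβ1 against control, DNMT3B -0.12 to 0.10 and TET3 -0.026 to 0.0031; in ERβ5 against control, DNMT3A -0.059 to 0.065, HELLS -0.17 to 0.10 and TET3 -0.18 to 0.23.

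Over all genes, 2434 passed in ERβ-KO against control, but 123 against a 1.5-fold change, 4351 in a fit of 2 groups and 1598 without GC and length trends. For ERβ1 against ERβ-KO the 3466 became 455 against a 1.5-fold change, and for ERβ5 against ERβ-KO the 3922 became 160, and 2502 without the trends. For ERβ5 against ERβ1 the 649 (485 higher, 164 lower) became 1375 with no filter, 189 against a 1.5-fold change, 421 in a fit of 2 groups and 1141 (727 higher, 414 lower) without the trends. For ERβ1 against control the 565 (189 higher, 376 lower) became 1384, 86, 1107 and 1349 (615 higher, 734 lower) under these settings and 851 with DESeq2. For ERβ5 against control the 1831 became 341 against a 1.5-fold change and 3032 without the trends. With single libraries left out, the counts over all genes that moved by more than 1.5 times were, in ERβ-KO against control, 506 without control replicate 1, 237 without control replicate 2, 419 without ERβ-KO replicate 1 and 1480 without ERβ-KO replicate 2. In ERβ1 against ERβ-KO they were 1843 and 2017 without ERβ-KO replicates 1 and 2, and 1198 without ERβ1 replicate 1. In ERβ5 against ERβ-KO they were 1859 and 1716 without ERβ-KO replicates 1 and 2, and 1674 without ERβ5 replicate 2. In ERβ5 against ERβ1 they were 125 and 175 without ERβ1 replicates 1 and 2, and 1389 and 298 without ERβ5 replicates 1 and 2. In ERβ1 against control they were 128 and 232 without control replicates 1 and 2, 235 and 217 without ERβ1 replicates 1 and 2, and 973 and 975 without ERβ5 replicates 1 and 2. In ERβ5 against control they were 587 and 732 without control replicates 1 and 2, and 1081 without ERβ5 replicate 2. UHRF1 had the fewest reads of the members in each of the 8 libraries, 60 to 291.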
